A study of Homo sapiens with 3 samples.

Results

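The 8 genes described here are 7 CXC chemokines and 1 receptor, CXCL1, CXCL2, CXCL3, CXCL5, CXCL6, CXCL8, CXCL12 and CXCR4, taken by their symbols from the 43913 genes counted. They were measured by Drop-seq, which encloses single cells with barcoded beads in droplets and counts RNA molecules by their unique molecular identifiers (UMIs). MM.1S, an established multiple myeloma line labelled as B lymphoblasts, and HS-5, an established bone marrow stromal line, were each sequenced from a monoculture, and the last library held both lines after 4 h of coculture. No group received a drug or cytokine. Each line stands for a single source of cells, and HS-5 was immortalised with papillomavirus genes. Each condition was 1 library, so no difference between conditions has a replicate check, no test was made, and all 95% intervals cover counting error only. The monocultures were grown in different media, so cell line, medium and library cannot be told apart between them, nor can coculture and library between a monoculture and the coculture.

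CXC chemokines are small secreted proteins that steer leukocytes. CXCL1, CXCL2, CXCL3, CXCL5, CXCL6 and CXCL8 (interleukin 8) share a Glu-Leu-Arg motif before their first cysteines, act through CXCR1 and CXCR2, and draw neutrophils and vessels; NF-κB is the best known inducer of their genes. CXCL12 (SDF-1) is the retention signal of the bone marrow, made there mostly by stromal cells, and CXCR4 is the receptor by which myeloma cells home to it. ACKR3 also binds CXCL12 and removes it without classical G protein signalling.

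The 6 Glu-Leu-Arg chemokine genes lie together on chromosome 4, within 358788 bases from 73740506 to 74099293 (GRCh38, GENCODE release 29). CXCL8 (73740506 to 73743716), CXCL6 (73836497 to 73849064) and CXCL1 (73869393 to 73871242) are on the plus strand. CXCL5 (73995642 to 73998779), CXCL3 (74036589 to 74038807) and CXCL2 (74097035 to 74099293) are on the minus strand. CXCL12 is on chromosome 10 (44370165 to 44386493, minus strand) and CXCR4 on chromosome 2 (136114349 to 136118165, minus strand). The stretches below are the 120 bases before each RefSeq transcript start (GRCh38.p14), given on the gene's own strand because the 6 genes were high in the same line. RefSeq and GENCODE starts differ. By the GENCODE positions the CXCL6 stretch lies wholly inside its gene, and those of CXCL2, CXCL3, CXCL5 and CXCL8 lie inside in part. Capitals mark GGAATTTCC, the letters of an NF-κB site searched on both strands (GGAAATTCC on the other).
CXCL1, chr4:73869273-73869392, plus strand: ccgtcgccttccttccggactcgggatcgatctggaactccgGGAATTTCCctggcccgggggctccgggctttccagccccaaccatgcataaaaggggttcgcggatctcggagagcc
CXCL2, chr4:74099196-74099315, minus strand: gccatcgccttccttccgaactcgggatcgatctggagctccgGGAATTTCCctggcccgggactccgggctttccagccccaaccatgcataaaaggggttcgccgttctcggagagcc
CXCL3, chr4:74038690-74038809, minus strand: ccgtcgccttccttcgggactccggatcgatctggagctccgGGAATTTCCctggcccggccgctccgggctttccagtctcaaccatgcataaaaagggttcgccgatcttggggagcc
CXCL5, chr4:73998678-73998797, minus strand: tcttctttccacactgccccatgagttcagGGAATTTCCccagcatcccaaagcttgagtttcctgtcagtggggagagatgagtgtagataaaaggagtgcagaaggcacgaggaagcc
CXCL6, chr4:73836558-73836677, plus strand: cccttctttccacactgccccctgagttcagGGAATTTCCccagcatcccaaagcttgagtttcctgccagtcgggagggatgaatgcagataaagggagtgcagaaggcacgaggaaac
CXCL8, chr4:73740449-73740568, plus strand: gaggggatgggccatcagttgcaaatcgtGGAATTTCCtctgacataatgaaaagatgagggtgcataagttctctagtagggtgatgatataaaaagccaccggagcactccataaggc

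All 6 stretches held GGAATTTCC once on the gene's strand, its first base between 77 and 91 bases before the start. Over all 35116 RefSeq promoter windows of 300 bases (250 before and 50 after a start), 162 held it on either strand (0.461%). The letters were not in the window of CXCL12 nor in that of the most upstream of 3 listed CXCR4 starts. The AP-1 letters TGACTCA, searched on both strands and found in 4.95% of windows, occurred among the 8 genes in CXCL8 alone, 137 bases before its start. In pairwise alignments CXCL1, CXCL2 and CXCL3 shared 88.4% to 93.4% of these 120 bases, and CXCL5 and CXCL6 shared 90.9%. CXCL8 shared 43.7% to 50% with the others. The transcripts are also alike, with identical runs of up to 97 bases between CXCL2 and CXCL3, 77 between CXCL1 and CXCL2, and 45 between CXCL5 and CXCL6. A read that lies wholly inside such a run cannot be assigned to 1 gene. Of the 50-base stretches, 5.73% of those of CXCL1 were in CXCL2 and 4.11% of those of CXCL2 were in CXCL3. CXCL5 and CXCL6 shared none of that length. Part of the split of UMIs between these pairs is thus uncertain, and how large a part was not tested.

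After cells with fewer than 200 detected genes were left out, 3947 MM.1S and 3732 HS-5 monoculture cells remained, with medians of 2201 and 971.5 UMIs. The coculture's 3856 cells were assigned to a line by 225 HS-5-specific and 82 MM.1S-specific genes, each at least 50-fold higher in its own monoculture, with no CXC chemokine or receptor among them. This gave 1643 MM.1S cells (median 669 UMIs) and 2103 HS-5 cells (median 957), and 110 barcodes with UMIs of both lines (2.85%) were set aside as likely doublets. No monoculture cell fell on the wrong side, but the line-specific genes were chosen from these same cells. This is therefore no independent check of the assignment. Between 39 and 76 barcodes were shared by each pair of libraries. Of the 10 plasma cell markers fixed for MM.1S, 7 were at least 2-fold lower in HS-5 monoculture, and of the 10 stromal markers 7 were higher. SDC1 and FN1 went against their lists, with SDC1 (syndecan-1) at 135 CPM in HS-5 and 38.1 in MM.1S, and FN1 (fibronectin) at 252 and 810 CPM. No marker of monocytes, T cells, endothelium or neutrophils reached 10 CPM in any group, and the summed level of each of these lists was at most 14.8 CPM.

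The first comparison asked which line carried each transcript in monoculture. Levels are summed UMIs per 1000000 UMIs (CPM), and since a UMI stands for 1 molecule counted at its 3′ end, levels of different genes were compared without dividing by length. All 6 Glu-Leu-Arg chemokines were far higher in HS-5, and CXCL12 and CXCR4 were higher in MM.1S. A gene was called when it differed at least 2-fold on the log2 scale after 1 CPM was added to both levels and averaged 10 CPM or more over both groups. By that rule 6 of 8 members were higher in HS-5 and 2 were lower, against 38.1% and 15.3% of 8734 genes.

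**Figure D1:**
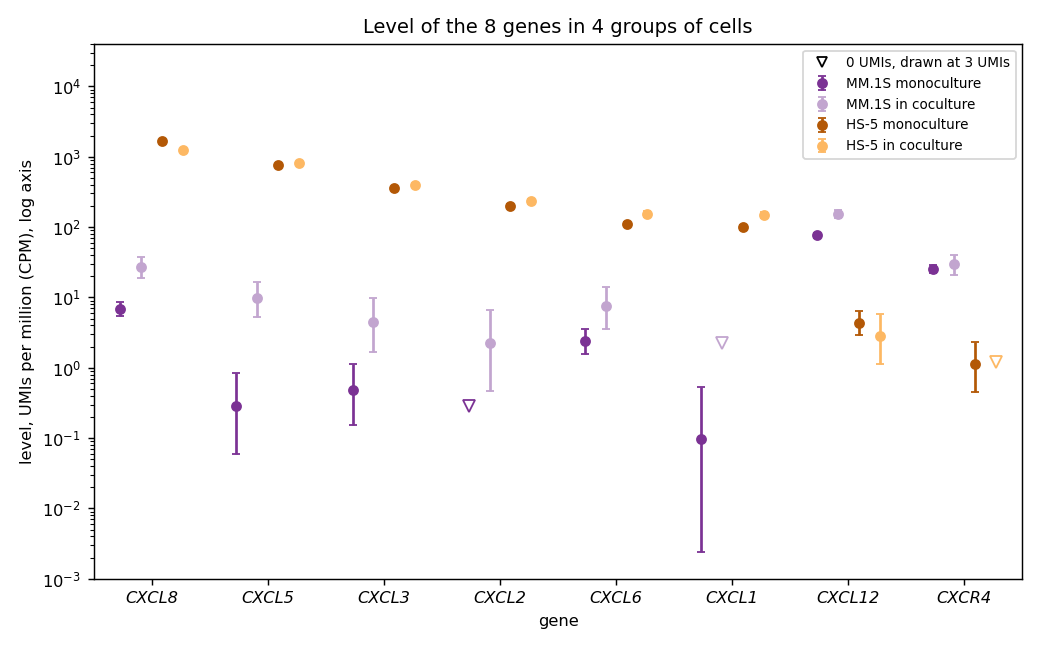
Level of each gene in CPM on a log axis, with 95% Poisson intervals, in MM.1S and HS-5 cells of the monocultures and of the coculture; open triangles mark groups with 0 UMIs, drawn at the level of 3 UMIs. The 6 chemokines on the left sit near 100 CPM or above in HS-5 cells of both cultures, and CXCL12 and CXCR4 are higher in MM.1S cells.

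CXCL8, the main neutrophil attractant of the group, had 1664 CPM in HS-5 monoculture (1632 to 1696, 10219 UMIs) and 6.90 CPM in MM.1S monoculture (5.40 to 8.69, 72 UMIs). It was the most abundant member in HS-5, 241-fold above MM.1S (191 to 308). CXCL5, which also acts through CXCR2, followed with 757 CPM in HS-5 (735 to 779, 4649 UMIs) and 0.288 CPM in MM.1S (3 UMIs), a ratio of 2632 (900.1 to 12768). CXCL3 had 354 CPM in HS-5 (339 to 369, 2174 UMIs) and 0.479 in MM.1S (5 UMIs), a ratio of 739 (316 to 2277). These 3 genes differed from each other in HS-5 by more than their intervals.

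CXCL2 had 199 CPM in HS-5 (188 to 211, 1223 UMIs) and no UMI in MM.1S, where 3 UMIs would be 0.288 CPM, so it was at least 692-fold higher in HS-5. CXCL6, another CXCR1 and CXCR2 ligand, had 111 CPM in HS-5 (103 to 119, 680 UMIs) and 2.4 in MM.1S (1.55 to 3.54, 25 UMIs), 46.2-fold apart (31.0 to 71.9). CXCL1 had 98.7 CPM in HS-5 (91.0 to 107, 606 UMIs) and 0.0958 in MM.1S (1 UMI), a ratio of 1029 (184 to 40723). CXCL6 and CXCL1 were the lowest of the 6 in HS-5 and their intervals overlapped. CXCL6 had the smallest difference between the lines.

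The few chemokine UMIs of the MM.1S monoculture did not keep the proportions seen in HS-5. For each 1000 UMIs in HS-5 there were 36.8 UMIs of CXCL6 and 7.05 of CXCL8 in MM.1S, but 0.645 of CXCL5, 0.737 of IL1B and none of IL6, which had 7429 UMIs in HS-5. The 72 CXCL8 UMIs came from 59 cells with at most 4 UMIs in a cell.

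CXCL12 was 17.2-fold higher in MM.1S (11.8 to 26.3), the reverse of what is usual for marrow stroma. Its level was 75.8 CPM in MM.1S monoculture (70.6 to 81.3, 791 UMIs in 634 cells, at most 18 in a cell) and 4.4 CPM in HS-5 monoculture (2.90 to 6.40, 27 UMIs in 7 cells). Of the 27 HS-5 UMIs, 18 lay in 1 cell of 10709 UMIs, in which 7 genes had at least 10 UMIs and at least 50% of all their HS-5 monoculture UMIs. Without that cell HS-5 held 9 CXCL12 UMIs, or 1.47 CPM. CXCR4 had 25.3 CPM in MM.1S (22.3 to 28.5, 264 UMIs in 245 cells) and 1.14 in HS-5 (0.458 to 2.35, 7 UMIs in 7 cells), 22.2-fold apart (10.6 to 55.8). Ligand and receptor transcripts were thus found in the same line, and both were low there beside the stromal chemokines.

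The second question was how many cells carried each transcript. Since MM.1S cells were sequenced more deeply, each cell was thinned to 500 UMIs, which left out 217 HS-5 monoculture cells, 446 MM.1S and 300 HS-5 cells of the coculture and no MM.1S monoculture cell. CXCL8 was then found in 39.3% of HS-5 monoculture cells (37.7% to 41.0%) and 0.329% of MM.1S cells (0.175% to 0.563%), the latter serving as background. CXCL5 was found in 26.6% of HS-5 cells (25.1% to 28.1%), CXCL3 in 9.5%, CXCL2 in 7.51%, CXCL6 in 4.72% and CXCL1 in 3.33%, each against at most 0.101% of MM.1S cells. Without thinning CXCL8 was found in 55.4% of HS-5 and 1.49% of MM.1S cells.

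CXCL12 was found in 3.55% of thinned MM.1S monoculture cells (2.99% to 4.17%) and 0.114% of HS-5 cells, and CXCR4 in 1.24% (0.92% to 1.64%) and 0.0569%. Without thinning, 16.1% of MM.1S cells had a CXCL12 UMI and 6.21% a CXCR4 UMI. A median of 2201 UMIs per cell is too shallow to say that a cell without a UMI lacked these transcripts. Both were seen together in 76 unthinned MM.1S cells, where the product of their shares gives 39.4. In the coculture 6 unthinned MM.1S cells held both, where the product gives 4. Unthinned cells differ in depth (in monoculture, medians of 1285 to 4167.5 UMIs over 4 depth bins), and deeper cells are likelier to show both. The products leave this out, so neither count can be read as coexpression. Thinned cells held both in 0 of 3947 in monoculture and 2 of 1197 in the coculture, where the products give 1.74 and 1.44, too few to show an excess or its absence.

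In the coculture both lines shared 1 library, so preparation and medium did not differ between them there. The same 6 members were higher in HS-5 cells and the same 2 lower, against 26.1% and 15.9% of 8888 genes. CXCL8 had 1243 CPM in HS-5 cells (1199 to 1288) and 27.1 in MM.1S cells (19.0 to 37.5), a ratio of 45.9 (33.1 to 65.6). CXCL5 had 811 and 9.79 CPM, a ratio of 82.8 (48.3 to 156). The coculture ratios of CXCL8, CXCL5, CXCL3, CXCL2 and CXCL6 were smaller than in monoculture, with higher levels in MM.1S cells, which are taken up below. For CXCL6 the intervals of the ratios overlapped (31.0 to 71.9 in monoculture and 11.0 to 43.1 in coculture).

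CXCL3 had 394 CPM in HS-5 cells of the coculture and 4.52 in its MM.1S cells (6 UMIs), and CXCL6 had 154 and 7.53 CPM (10 UMIs). CXCL2 had 231 CPM in HS-5 cells and 3 UMIs in MM.1S cells, a ratio of 102 (34.8 to 497). CXCL1 had 150 CPM in HS-5 cells and no UMI in MM.1S cells, where 3 UMIs would be 2.26 CPM, so it was at least 66.2-fold higher in HS-5. CXCL12 had 154 CPM in MM.1S cells (133 to 176, 204 UMIs) and 2.83 in HS-5 cells (7 UMIs), a 54.3-fold difference (25.9 to 137). CXCR4 had 29.4 CPM in MM.1S cells (20.9 to 40.1, 39 UMIs) and no UMI in HS-5 cells, at least 24.2-fold less. MM.1S RNA free in the droplets, estimated at 1.02% of the UMIs of HS-5 cells, would give 1.57 of their 2.83 CPM of CXCL12.

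The third comparison set HS-5 cells of the coculture against HS-5 monoculture. None of the 6 members that averaged 10 CPM or more passed 2-fold, where 1.21% of 8812 genes were called higher and 1.83% lower. CXCL8 was 0.747 times its monoculture level (0.717 to 0.778), with 1243 against 1664 CPM. It was the only one of the 6 that was lower in the coculture, although CXCL3 stood at a log2 ratio of -0.01 relative to genes of like transcript length, and 17.6% of genes lay below it. CXCL1 was 1.52-fold higher (1.33 to 1.73), at 150 against 98.7 CPM, and CXCL6 was 1.39-fold higher (1.23 to 1.58), at 154 against 111 CPM. CXCL2 (1.16-fold), CXCL3 (1.11-fold) and CXCL5 (1.07-fold) were nearer to 1. The CXCL3 value depended on the weight given to deep cells. With every cell thinned to 500 UMIs, an alternative chosen after seeing the data, its log2 ratio was 0.58 in place of 0.16, beside 0.59 for CXCL6 and 0.93 for CXCL1. That of CXCL8 was then -0.29 in place of -0.42. Without thinning the median gene had a log2 ratio of -0.03, and the middle 90% of genes ran from -0.77 to 0.70. That range holds the unthinned values of all 6. CXCL1 lay above it when thinned (0.93) and with equal weight per cell (0.88), but the range of all genes was not computed for those settings.

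**Figure D2:**
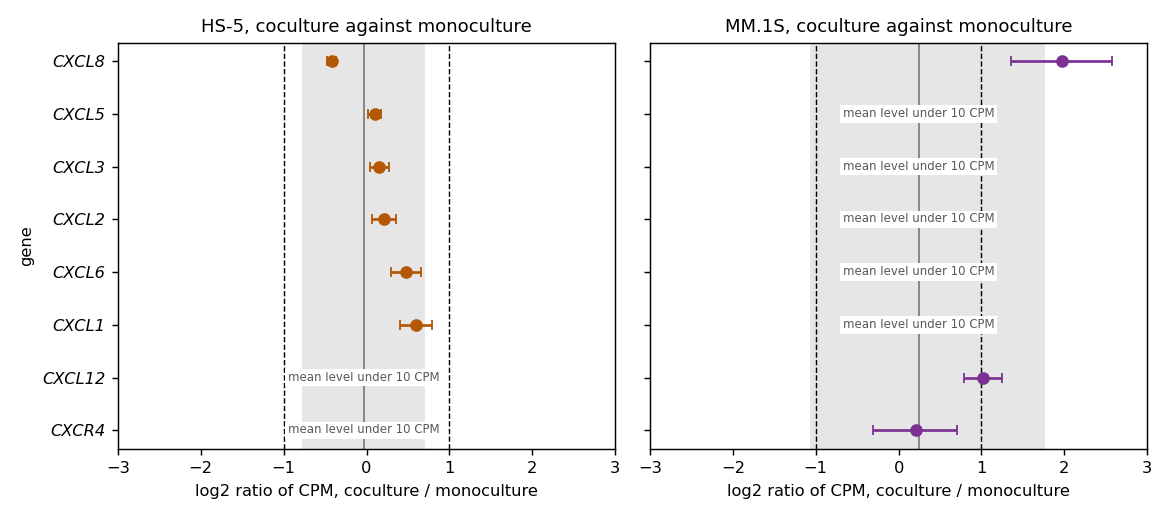
Log2 ratio of CPM in coculture over monoculture, without a pseudocount, for HS-5 (left) and MM.1S cells (right), with exact 95% counting intervals; the grey band holds the middle 90% of genes averaging 10 CPM or more, the grey line is their median and dashed lines mark 2-fold. In HS-5 the 6 chemokines lie inside the band, with CXCL8 the only one left of the median.

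The shares of cells followed the levels. After thinning, CXCL8 was found in 31.2% of HS-5 cells of the coculture (29.1% to 33.4%) against 39.3% in monoculture, and CXCL5 in 27.0% against 26.6%. CXCL1 was found in 5.93% (4.89% to 7.13%) against 3.33% (2.76% to 3.98%).

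The levels of some of these chemokines differed with the depth of the HS-5 cell. Divided into 4 bins of equal cell number by UMIs per cell, the shallowest HS-5 monoculture cells (median 554 UMIs) had 1314 CPM of CXCL8 and the deepest (median 2790) 1859 CPM. From the shallowest to the deepest bin CXCL3 had 177, 204, 213 and 453 CPM, so that its deepest bin stood apart. CXCL5 (728, 756, 660.0 and 792 CPM) and CXCL2 (188, 173, 181 and 212 CPM) followed no steady order with depth. In the coculture the CXCL8 bins ran from 979 to 1396 CPM, and each lay below the monoculture bin of the same rank. The coculture bins were shallower at each rank, with medians of 479 to 1994 UMIs against 554 to 2790. For CXCL1 each coculture bin (128 to 154 CPM) lay above every monoculture bin (60.8 to 115 CPM). The CXCL3 bins of the coculture had 252, 292, 345 and 485 CPM, and the first 3 exceeded the monoculture bin of their rank by more than the deepest did.

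**Figure D3:**
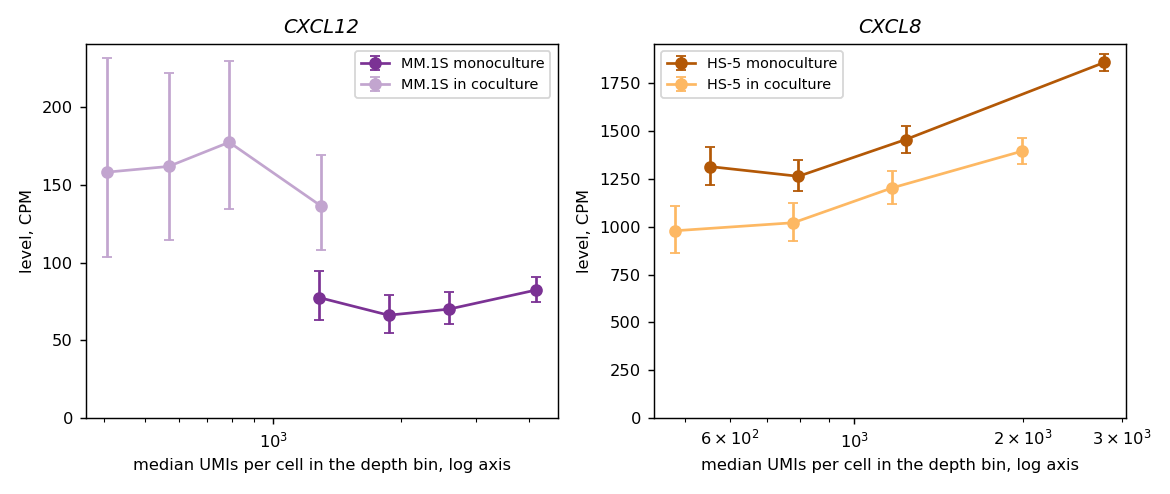
Level in CPM (with 95% Poisson intervals) of CXCL12 in MM.1S cells and of CXCL8 in HS-5 cells, by 4 bins of UMIs per cell, placed on a log axis at each bin's median UMIs. CXCL12 is higher in all 4 coculture bins than in any monoculture bin, and CXCL8 is lower in each coculture bin than in the monoculture bin of the same rank.

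The fourth comparison set MM.1S cells of the coculture against MM.1S monoculture. Of the 3 members averaging 10 CPM or more, CXCL8 and CXCL12 were called higher and CXCR4 was not called, where 19% of 7838 genes were called higher and 5.81% lower. CXCL12 was 2.03-fold higher (1.73 to 2.37), at 154 against 75.8 CPM, a log2 ratio of 1.01 that only just passed the threshold. The median gene stood at 0.24, and 81.3% of genes lay below CXCL12, so a ratio of this size was common among MM.1S genes. The share of thinned cells with CXCL12 was 7.6% (6.16% to 9.25%) against 3.55%.

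MM.1S cells of the coculture were shallower than those of the monoculture, with a median of 669 against 2201 UMIs, and had 4.05% mitochondrial UMIs against 6.82%. The part of these differences in the ratios was not tested. The CXCL12 level was 66.2 to 82.4 CPM over the 4 depth bins of the monoculture and 136 to 177 CPM over those of the coculture. The depths of the cultures met in 1 pair of bins only. The shallowest monoculture bin (median 1285 UMIs) and the deepest coculture bin (median 1299 UMIs) had 77.5 CPM (62.9 to 94.4) and 136 CPM (108 to 169). CXCR4 had 29.4 CPM against 25.3, a ratio of 1.16 over all cells, with a counting interval of 0.807 to 1.63. This interval does not cover the difference in depth. In the pair of bins of like depth CXCR4 had 15.0 CPM (9.04 to 23.5) in monoculture and 31.6 CPM (19.0 to 49.3) in the coculture. In monoculture CXCR4 differed between depth bins more than between all cells of the 2 cultures, from 15.0 CPM in the shallowest bin to 34.2 in the deepest.

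CXCL8 was 3.93-fold higher in MM.1S cells of the coculture than in monoculture (2.56 to 5.94), at 27.1 CPM in 36 UMIs, each in a cell of its own. RNA that HS-5 cells release into the droplets adds to every MM.1S barcode. The HS-5-specific genes put this free RNA at 2.22% of all UMIs in MM.1S barcodes, which counts the low level of those genes in MM.1S itself as free RNA. At that share HS-5 would give 36.7 CXCL8 UMIs, and 36 were seen. The level in MM.1S cells was 2.18% of that in HS-5 cells. The median over 141 HS-5-specific genes at 100 CPM or more was 1.98% (10th to 90th percentile 0.720% to 4.77%). The monoculture level of MM.1S would add 9.17 CXCL8 UMIs, for 45.9 in all. How much of the CXCL8 came from MM.1S cells themselves was not tested.

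For CXCL5 13 UMIs were seen and 23.9 given by free RNA, for CXCL3 6 and 11.7, and for CXCL2 3 and 6.82. No CXCL1 UMI was seen where 4.42 were given. IL6, with 10 seen and 35.6 given, and IL1B, with 15 and 37.8, were likewise below the estimate. The ratio of UMIs seen to given was 0.98 for CXCL8 (0.687 to 1.36). It was 0.543 for CXCL5 (0.289 to 0.928), 0.515 for CXCL3 (0.189 to 1.12) and 0.44 for CXCL2 (0.0908 to 1.29). These intervals leave out the spread among HS-5-specific genes (0.720% to 4.77% of the HS-5 level). That spread holds CXCL5 (1.21%), CXCL3 (1.15%), CXCL2 (0.979%) and IL1B (0.882%). IL6 (0.624%) and CXCL1 lay below it and CXCL6 (4.88%) above. CXCL6 was above the estimate, with 10 UMIs seen and 4.56 given, a ratio of 2.19 (1.05 to 4.03). Its monoculture level would add 3.18 UMIs, for 7.74 in all. Free RNA gave 0.0836 of the 204 CXCL12 UMIs and none of the 39 CXCR4 UMIs.

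**Figure D4:**
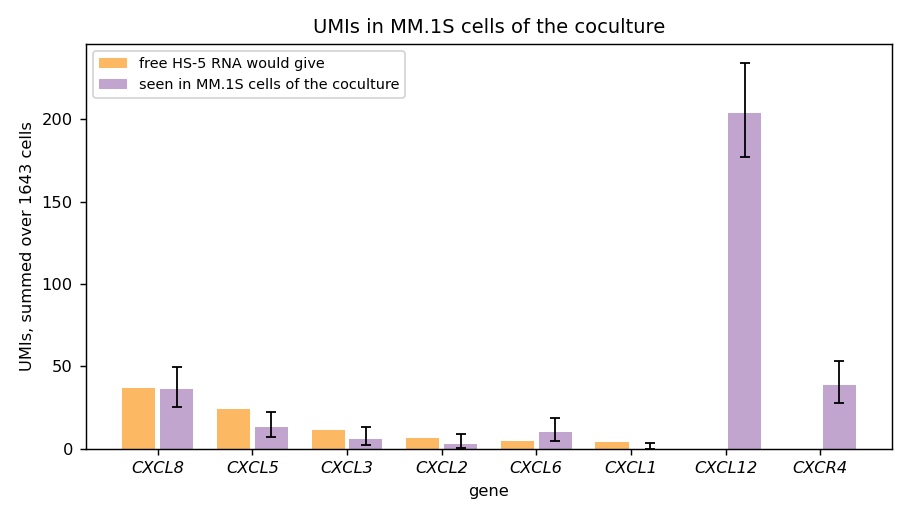
UMIs of each gene seen in the 1643 MM.1S cells of the coculture (with 95% Poisson intervals) beside the UMIs that free HS-5 RNA at 2.22% would give. The 6 chemokines on the left are near or below the free RNA bar except CXCL6, whereas the 204 UMIs of CXCL12 and 39 of CXCR4 have almost none from free RNA.

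The 6 chemokines varied strongly among HS-5 cells. With each cell thinned to 1000 UMIs, CXCL8 had a variance over mean of 3.01 across 1802 monoculture cells, the 7th highest of 3579 genes found in at least 5% of cells, where the median gene had 1.04. In 998 coculture cells it was 3.62, the 8th of 3523. CXCL3 came next in both cultures with 1.88 and 2.85 (ranks 29 and 13). In monoculture CXCL5 (1.59), CXCL1 (1.55), CXCL2 (1.43) and CXCL6 (1.32) followed. In the coculture the order was CXCL2 (2.03), CXCL1 (2.03), CXCL5 (1.93) and CXCL6 (1.63), at ranks 29, 30, 34 and 52. For comparison, CXCL12 had 1.18 in MM.1S monoculture, rank 158 of 2605, and CXCR4 was in fewer than 5% of cells. Variance over mean can rise with the mean, which was 1.61 UMIs for CXCL8 in HS-5 monoculture and 0.076 for CXCL12 in MM.1S monoculture. The ranks were not matched for mean level.

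At that depth 41.3% of HS-5 monoculture cells had no CXCL8 UMI (39.1% to 43.7%), 36.3% had 1 to 2, 21.0% had 3 to 9 and 1.33% had 10 or more. The 22.4% of cells with at least 3 UMIs thus held 68.2% of all CXCL8 UMIs. In the coculture 52.7% had none (49.6% to 55.8%) and 15.1% had 3 to 9 (13% to 17.5%), while 1.40% had 10 or more. The share with none was higher in the coculture and the share with 3 to 9 lower, both beyond their intervals, whereas the intervals of the share with 10 or more overlapped.

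HS-5 cells rarely carried many of these chemokines at once at this depth. Of the monoculture cells 21.9% had a UMI of none of the 6, 31.7% of 1, 25.6% of 2, 15.2% of 3, 4.77% of 4 and 0.721% of 5, and no cell had all. In the coculture 25.7% had none and 3 of 998 cells had all 6. The summed UMIs of the 6 had a median of 2 in both cultures, a 90th percentile of 7 and 8, and a maximum of 27 and 30.

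Among genes in at least 5% of HS-5 monoculture cells, those most like CXCL8 by Pearson correlation of log2(UMI + 1) over 1802 cells were IL6 (0.37), IL1B (0.31), CXCL3 (0.24), CSF3 (0.21) and PTGS2 (0.19), all inflammatory genes. In the 998 coculture cells the same pairs gave 0.32, 0.25, 0.24, 0.19 and 0.11. Points within a culture share 1 library and the same UMI total. CXCL3 was most like CXCL8 (0.24), CXCL5 (0.21), CXCL2 (0.21), IL6 (0.21) and SOD2 (0.18). For CXCL2 the list was CXCL3, CXCL8, IL6 (0.16), PTGS2 (0.14) and GADD45A (0.13), and for CXCL5 it was CXCL3, CXCL8 (0.19), MMP3 (0.16), EREG (0.15) and IL1B (0.14). With reads shared between close copies, the correlation of CXCL2 with CXCL3 may hold miscounted reads.

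CXCL1 and CXCL6 had no close partner. The 5 genes most like CXCL1 were MT-CYB, CXCL8, SERINC1, FILIP1L and SLC16A7, with correlations of 0.11 or less, and those most like CXCL6 were CXCL5 (0.12), DSN1, CXCL8, STX2 and EPM2AIP1. In sparse counts of this size such correlations carry little. The sum of the 6 correlated at 0.46 with the sum of 14 NF-κB-driven cytokine genes in monoculture and 0.42 in coculture. With 11 stromal matrix genes it was at -0.01 and 0.05, and with 10 mitosis genes at 0.01 and 0.04. At this depth the sum thus showed almost no linear relation to matrix or mitotic transcripts. Single members ran from -0.085 (CXCL5) to 0.091 (CXCL2) with the mitosis genes in coculture.

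**Figure D5:**
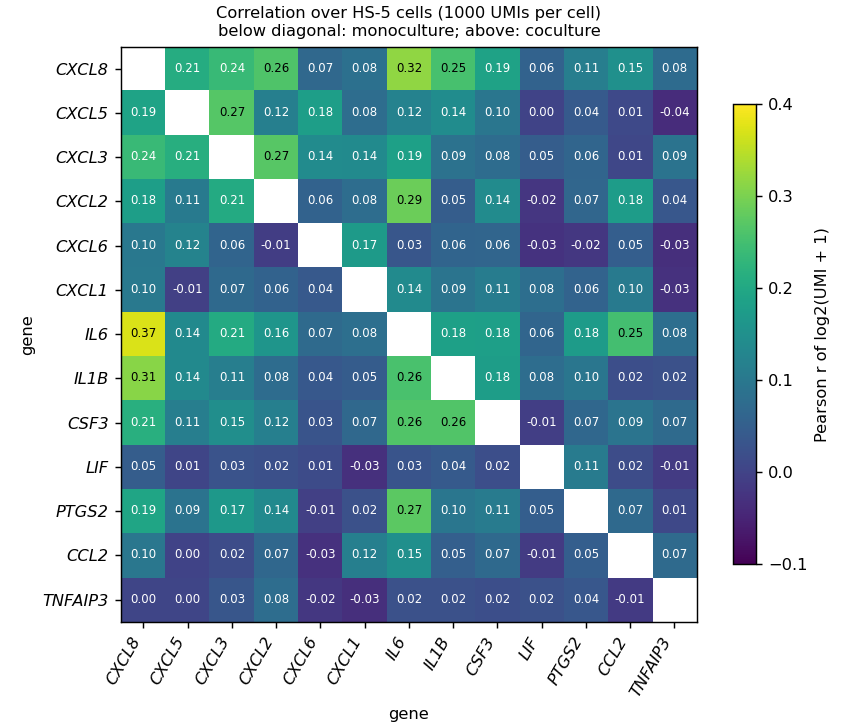
Pearson correlation of log2(UMI + 1) between chemokines and cytokine genes over HS-5 cells thinned to 1000 UMIs, in monoculture (1802 cells, below the diagonal) and coculture (998 cells, above it). The highest value is CXCL8 with IL6 (0.37 in monoculture, 0.32 in coculture), and all values of LIF with the 6 chemokines are under 0.1.

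Among 10 other CXC chemokines, CXCL14 alone averaged 10 CPM or more in the monocultures. CXCL14, a chemokine without a settled receptor, had 174 CPM in HS-5 and 20.9 in MM.1S monoculture. In the coculture it had 93.3 CPM in HS-5 cells (81.7 to 106) and 98.6 in MM.1S cells (82.5 to 117), so the lines were level there. The MM.1S level was 4.72-fold above monoculture (3.77 to 5.89), and free HS-5 RNA gave 2.76 of its 131 UMIs.

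CXCL9 and CXCL10, interferon-induced ligands of CXCR3, were also called higher in MM.1S cells of the coculture. With CXCL14 they were the 3 of the 10 that averaged 10 CPM or more in that comparison, where 19% of 7838 genes were called higher. CXCL9 had 48.2 CPM there (64 UMIs in 57 cells) and 0.671 in monoculture (7 UMIs), a ratio of 71.8 (32.9 to 186), with 0.808 CPM in HS-5 cells of the coculture. CXCL10 had 27.1 against 9.39 CPM, a ratio of 2.89 (1.91 to 4.27), but its 36 UMIs came from 16 cells and 17 of them from 1 cell. PF4, PF4V1 and PPBP, which lie in the chromosome 4 cluster among the members, had at most 6 UMIs in either monoculture.

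Of 8 CXC receptors only CXCR4 and ACKR3 averaged 10 CPM or more in any comparison. CXCR1 and CXCR2, the receptors of the 6 stromal chemokines, had 2 and 3 UMIs in MM.1S monoculture and 0 and 13 in HS-5. ACKR3, the scavenging receptor of CXCL12, was high where CXCR4 was low, with 57.6 CPM in HS-5 monoculture (51.8 to 64.0) and 0.671 in MM.1S. It was called lower in HS-5 cells of the coculture, at 23.8 CPM (18.1 to 30.8), a ratio of 0.414 (0.309 to 0.546).

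Of 20 genes of CXCR4 signalling and turnover in the counts, 12 averaged 10 CPM or more in MM.1S cells, of which 3 were called higher in the coculture and 1 lower, beside the 19% and 5.81% of all genes given above. The 3 were CXCL12 itself and the G protein subunits GNB1 (219 against 45.1 CPM) and GNAI2 (162 against 54.1 CPM). The lower one was CD74, the MIF receptor that pairs with CXCR4, at 16.6 against 40.2 CPM (ratio 0.412, 0.256 to 0.633). In HS-5, GNAI1 was called higher (27.5 against 13.2 CPM) and the receptor kinase GRK2 lower (10.5 against 24.7 CPM) of 11 genes, against 1.21% and 1.83% of all genes. DPP4, the protease that inactivates CXCL12, had 71.1 against 39.1 CPM in HS-5, under 2-fold. MIF itself had 24 UMIs in MM.1S and 8 in HS-5 monoculture, few for a gene that most cell lines express highly, so a low count here does not by itself mean a low transcript.

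Between the monocultures, 7 of 15 such signalling genes were called higher in HS-5 and 4 lower, where 38.1% and 15.3% of all genes were. The highest were DPP4 (log2 ratio 4.35), the receptor kinase GRK5 (3.45), GNAI2 (2.25) and GNB1 (2.12), and the lowest CD74 (-4.06), CXCL12 (-3.83), the G protein regulator RGS16 (-3.77) and the arrestin ARRB2 (-1.37).

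Of 14 NF-κB-driven cytokine and response genes, 10 of 12 measured were called higher in HS-5 than in MM.1S monoculture, led by IL6 (1209 CPM), IL1B (1545 CPM), CSF3 (917 CPM) and CSF2 (192 CPM), with ICAM1 the one called lower, against 38.1% and 15.3% of all genes. In HS-5 cells of the coculture 1 of the 14 was called higher and 2 lower, against 1.21% and 1.83%, and their median log2 ratio was -0.14. CCL2, the monocyte attractant, was higher at 88.9 against 21.8 CPM. CSF2 (26.3 against 192 CPM) and IL11 (24.6 against 51.0 CPM) were lower, and IL6 had 1206 against 1209 CPM. In MM.1S cells CCL2 was called higher too, at 104 against 4.22 CPM. It was 1 of 4 of these genes measured there, where 19% of all genes were called higher.

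Of 14 genes for factors that transcribe chemokine genes or degrade their mRNA, 8 of 12 measured were called higher in HS-5 monoculture, beside 38.1% of all genes. FOSL1, an AP-1 subunit, led with a log2 ratio of 5.75, before NFKBIZ (4.56), CEBPB (4.41) and the mRNA decay factor ZFP36L1 (4.06). RELA, the main activating NF-κB subunit, was alike in both lines with 33.4 and 34.2 CPM. None of 13 was called in HS-5 between coculture and monoculture, where 1.21% of all genes were called higher and 1.83% lower. In MM.1S cells of the coculture 4 of 9 were called higher and none lower, beside 19% and 5.81% of all genes. The 4 were CEBPB (42.9 against 9.59 CPM), HIF1A (45.9 against 15.2 CPM), NFKB1 (43.7 against 14.9 CPM) and ZFP36L1 (91.8 against 40.7 CPM).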

How the data were processed

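Single-cell transcripts were counted in 3 Drop-seq libraries, 1 per condition. The authors deposited whole-number UMI counts per gene and barcode, without normalization. The submitters' processing notes name Cell Ranger 3.0.2, UMI-tools 1.0.0, STAR 2.5.3a, featureCounts 1.6.4 and SAMtools 1.9 with GRCh38; roles, annotation and the strand setting of the counting are not given in the sources used here. The libraries held 10433182 (MM.1S), 6143448 (HS-5) and 3981392 UMIs (coculture), so 3 UMIs were worth 0.288, 0.488, 2.26 and 1.21 CPM in MM.1S and HS-5 monoculture cells and in MM.1S and HS-5 cells of the coculture.

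Cells with at least 200 genes were kept. A coculture barcode went to MM.1S when HS-5-specific UMIs made up under 0.2 of all its line-specific UMIs, and to HS-5 above 0.8 (line-specific genes: at least 50 CPM and 50-fold). No doublet caller was run. UMIs were summed per line and library (Python 3.11.15, numpy 2.4.6, scipy 1.17.1; figures matplotlib 3.10.9). Intervals are exact Poisson for CPM, Clopper-Pearson for shares and conditional binomial for ratios. PCR duplicates are removed by UMIs, and intervals and floors cover counting error only. Steps were tested on simulated data. The members and gene lists were chosen with earlier results of these data known. Named genes are the 8 members, list genes called in a comparison (at most the 4 highest and 4 lowest of each list), with a few uncalled list genes chosen after their values were seen, and the 5 genes most like a chemokine with at least 500 UMIs. Alternatives changed cell filters, scaling, pseudocount, minimum level, fold, line-specific genes, mixed limits and free RNA; 3 were chosen after seeing the data. No protein sequences were used here.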

Additional observations from a re-analysis of the deposited data

Results flagged for a closer look

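Of 21 genes of the lists described above that averaged 10 CPM or more in both lines, 8 moved in opposite directions in the lines between monoculture and coculture, each beyond its counting interval. How many of all genes do so by the same rule was not counted, so 8 of 21 cannot be read as many or few. With 1 library per condition the difference between the lines was not tested. CXCL8 had a log2 ratio of -0.42 in HS-5 and 1.83 in MM.1S cells, where 36 UMIs were seen and free HS-5 RNA would give 36.7. CXCL14 had -0.89 in HS-5 and 2.19 in MM.1S cells, where free HS-5 RNA would give 2.76 of 131 UMIs. Among the signalling genes GNAI2 had -0.28 in HS-5 and 1.56 in MM.1S cells, and GNAI1 had the other order, with 1.01 in HS-5 and -0.78 in MM.1S cells. Of the transcription and mRNA decay factors NFKB1 had -0.58 and 1.49, CEBPB -0.32 and 2.05, ZFP36L1 -0.34 and 1.15, and JUN -0.15 and 0.47, in HS-5 and MM.1S cells in that order. The median gene stood at -0.03 in HS-5 and 0.24 in MM.1S cells.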

How the results depend on the processing

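No paired analysis was possible because each condition is 1 library. The counts of members higher in HS-5 (6 in monoculture and 6 in coculture) ranged from 5 to 6 under the alternatives. The count called in HS-5 between coculture and monoculture, 0, became 1 at a 1.5-fold threshold (CXCL1) and 1 with no minimum level (CXCR4, 7 against 0 UMIs). The count called in MM.1S cells, 2, became 1 with cells of at least 500 genes, with mitochondrial and ribosomal protein genes left out, relative to the median of all genes, with a pseudocount of 5 CPM, with a mean of at least 50 CPM, with free RNA subtracted and, in alternatives chosen after seeing the data, relative to genes of like transcript length or with cells thinned to 500 UMIs. It became 6 with no minimum level. CXCL12 in MM.1S cells kept its direction under all 18 alternatives, at a log2 ratio of 0.77 to 1.16, and missed 2-fold under 6. CXCL8 in MM.1S cells went from 1.83 to -2.98 with free RNA subtracted. The subtraction left -0.556 CPM, which was taken as 0, so the size of -2.98 was set by this limit and the pseudocount. It does not measure a fall of CXCL8. Over 392 recomputed log2 ratios that of CXCL8 was the only called one to reverse. Free RNA from genes 100-fold higher in HS-5 gave 29.8 CXCL8, 19.4 CXCL5, 3.70 CXCL6 and 3.58 CXCL1 UMIs. The CXCL5 and CXCL1 values then lay inside the counting intervals of the 13 and 0 UMIs seen, where 23.9 and 4.42 had not. The shortfall of these 2 genes thus depended on the genes used for the estimate. At 2000 UMIs per cell 3 of the 5 genes most like CXCL8 remained, 5 for CXCL3, 4 for CXCL2, 3 for CXCL5, 1 for CXCL1 and 0 for CXCL6. Depth limits CXCR4 in the coculture to 39 UMIs.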

Other observations

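The 110 coculture barcodes with UMIs of both lines entered no comparison. They held 137 CXCL8 UMIs (796 CPM, 668 to 941), 71 CXCL5 UMIs (412 CPM), 73 CXCL3 UMIs (424 CPM), 12 CXCL12 UMIs (69.7 CPM, 36.0 to 122) and 3 CXCR4 UMIs (17.4 CPM). The level of CXCL3 was above those of both lines in the coculture, with an interval of 332 to 533 CPM that holds the HS-5 level. The levels of the other 7 members lay between those of MM.1S and HS-5 cells.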
